A study of Mus musculus with 14 samples.

Results

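The 66 mouse genes described here encode the classical axon guidance ligands and their receptors. They were taken by symbol from 21779 protein-coding genes of a RefSeq table of build GRCm38.p6. Ligands were the semaphorins (20 genes), ephrins (8), Slits (3) and netrins (4), and receptors were the plexins (9), Eph receptors (14), Robo receptors (4) and Unc5 receptors (4). A gene counted as occupied in a library where a deposited peak overlapped its span plus 1 kb on each side by at least 1 bp.

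Chromatin immunoprecipitation followed by sequencing (ChIP-seq) had been made in mouse embryonic stem cells for RNF2 and BAP1, to map both proteins and to compare RNF2 binding with and without BAP1. The 14 samples were 7 ChIP libraries and 7 inputs, read as single ends of 50 bases, from C57BL/6 cells with a labelled age of E3.5 to E4.5 days. All groups had received 100 nM 4-hydroxytamoxifen (4-OHT) and 10 µM of the caspase inhibitor emricasan for 4 days, the wild-type libraries included. RNF2 ChIP covered wild type (2 libraries), BAP1 knockout (2) and RNF2 knockout (1). BAP1 ChIP covered cells whose one Bap1 allele encodes the C91A form, which lacks the catalytic cysteine (Bap1C91A/-), crosslinked with DSG in addition (1 library), and BAP1 knockout cells as its control (1 library). The labels name no Cre driver and no clone, and nothing in them says that the paired libraries of a genotype came from separate cultures, so differences between them may be technical. The RNF2 libraries of each genotype are called wild type 1 and 2 and knockout 1 and 2. Peak lists carry no expression levels, so the labelled cell type could not be checked against the level of its markers. Of 10 embryonic stem cell marker genes, 1 (Esrrb) held an RNF2 peak in wild type 1 and 4 in wild type 2. Of 6 neuronal markers 1 and 6 did so, and of 6 fibroblast markers 2 and 5. The shares over all protein-coding genes were 13.4% and 55.3%, and with so few markers no pattern by cell type can be read.

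RNF2 (RING1B) is the ubiquitin ligase subunit of Polycomb repressive complex 1, which places ubiquitin on histone H2A, and BAP1 is the deubiquitinase that removes it. Polycomb complexes in embryonic stem cells are known to sit at CpG-rich promoters of developmental genes. Guidance genes belong to that class: semaphorins signal through plexins, ephrins through Eph receptor tyrosine kinases, Slits through Robo receptors, and netrins through DCC and the Unc5 receptors, together steering growing axons and migrating cells.

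The strongest RNF2 peak of a member lay mostly at its gene start, and the DNA before 7 starts is shown so that the CG content measured below can be read in the letters. Each line is the 250 bases before the RefSeq start in GRCm38.p6, 5′ to 3′ on the gene's own strand, with every CG dinucleotide in capitals. Efna5, Efna2 and Sema4a are the members of highest fold enrichment in their class of occupancy whose stretch lies outside all listed genes. Ntn4, Slit3, Unc5c and Epha2 were added after their values were seen, as examples of strong occupancy in other families and of weak occupancy.
Efna5: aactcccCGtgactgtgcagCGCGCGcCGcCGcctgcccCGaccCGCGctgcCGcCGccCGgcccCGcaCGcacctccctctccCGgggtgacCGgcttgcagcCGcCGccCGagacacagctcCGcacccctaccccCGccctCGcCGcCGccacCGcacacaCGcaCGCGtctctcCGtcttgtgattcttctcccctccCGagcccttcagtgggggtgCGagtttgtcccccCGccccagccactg
Ntn4: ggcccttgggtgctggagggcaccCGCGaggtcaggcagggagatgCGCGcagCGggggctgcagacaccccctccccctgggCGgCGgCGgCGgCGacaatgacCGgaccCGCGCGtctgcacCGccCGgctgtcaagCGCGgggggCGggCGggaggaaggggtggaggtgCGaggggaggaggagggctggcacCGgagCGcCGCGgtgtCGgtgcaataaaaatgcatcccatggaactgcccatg
Slit3: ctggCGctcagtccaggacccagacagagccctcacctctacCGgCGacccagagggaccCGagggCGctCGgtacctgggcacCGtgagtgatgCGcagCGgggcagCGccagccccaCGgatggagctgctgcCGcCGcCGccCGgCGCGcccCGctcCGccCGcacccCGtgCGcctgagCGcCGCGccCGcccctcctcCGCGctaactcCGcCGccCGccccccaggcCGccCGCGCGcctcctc
Unc5c: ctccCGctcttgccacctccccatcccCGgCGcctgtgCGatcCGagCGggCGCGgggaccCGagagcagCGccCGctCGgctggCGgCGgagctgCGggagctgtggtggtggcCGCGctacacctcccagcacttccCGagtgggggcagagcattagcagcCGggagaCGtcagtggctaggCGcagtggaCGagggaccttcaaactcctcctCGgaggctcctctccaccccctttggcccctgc
Efna2: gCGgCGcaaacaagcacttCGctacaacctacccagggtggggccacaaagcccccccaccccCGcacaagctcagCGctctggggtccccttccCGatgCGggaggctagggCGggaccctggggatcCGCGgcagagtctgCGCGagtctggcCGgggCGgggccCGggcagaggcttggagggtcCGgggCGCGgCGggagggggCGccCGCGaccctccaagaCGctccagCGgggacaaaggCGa
Epha2: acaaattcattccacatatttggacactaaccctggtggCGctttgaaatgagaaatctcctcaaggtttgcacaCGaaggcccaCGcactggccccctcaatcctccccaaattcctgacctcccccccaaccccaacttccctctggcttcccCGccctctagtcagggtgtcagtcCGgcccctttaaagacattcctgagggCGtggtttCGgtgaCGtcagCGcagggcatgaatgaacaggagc
Sema4a: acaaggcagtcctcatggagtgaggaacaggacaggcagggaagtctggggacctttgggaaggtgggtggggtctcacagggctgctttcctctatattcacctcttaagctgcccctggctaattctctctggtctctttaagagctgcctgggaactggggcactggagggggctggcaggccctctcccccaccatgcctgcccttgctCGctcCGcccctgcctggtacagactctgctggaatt
The Efna5 stretch (chr17:62881318-62881567, minus strand) holds 32 CG, that of Ntn4 (chr10:93640799-93641048, plus) 26, that of Slit3 (chr11:35121206-35121455, plus) 35 and that of Unc5c (chr3:141465314-141465563, plus) 23. All 4 genes carried RNF2 in both wild-type libraries. The stretch of Efna2 (chr10:80179232-80179481, plus), a gene with a peak in wild type 2 but not the first, holds 25 CG. The stretches of Epha2 (chr4:141300971-141301220, plus; a weak peak in the second library) and Sema4a (chr3:88461183-88461432, minus; a peak in 1 BAP1 knockout library alone) hold 9 and 2.

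RNF2 lay at most of the guidance genes in each wild-type library. A peak was listed at 35 of 66 members (53.0%) in wild type 1, where 13.4% of all protein-coding genes held one. The second, called from 149 M tags against 58.4 M, listed a peak at 63 members (95.5%; all genes 55.3%). In BAP1 knockout the counts were 51 (77.3%; all genes 26.9%) and 64 (97.0%; all genes 63.5%). In the RNF2 knockout library, with 119 M tags, no member and no other gene held a peak (0%). The first libraries of both genotypes thus marked a narrower set than the second ones, and the plot of occupied shares sets each library beside its own background.

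**Figure D1:**
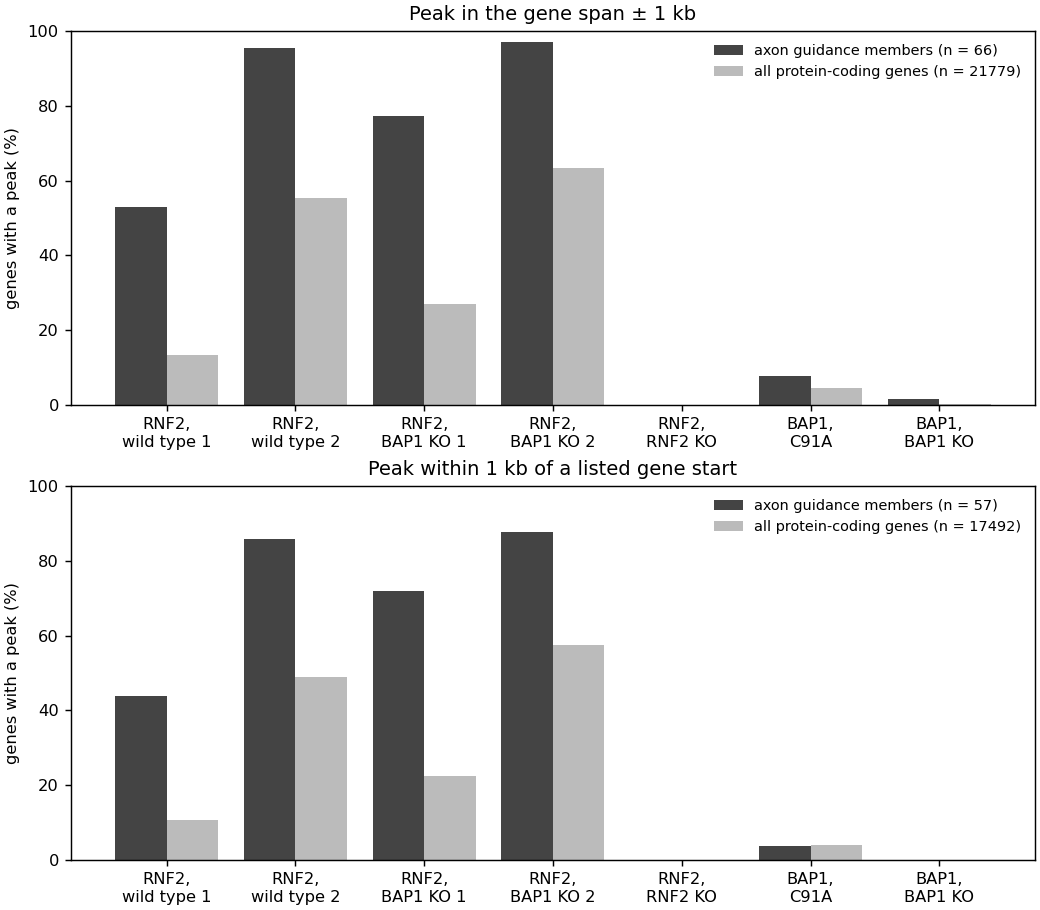
Share of genes with a peak (%, y axis) in each ChIP library (x axis), in the gene span plus or minus 1 kb (upper panel, 66 guidance genes and all 21779 genes) and within 1 kb of a listed start (lower panel, 57 and 17492 genes). In the upper panel members stand above all genes in each RNF2 library with peaks, from 53.0% against 13.4% to 97.0% against 63.5%, and no library has an error bar because each bar is 1 library.

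Guidance genes are long, and a long gene offers a wider window. Their median length was 42.3 kb against 17.2 kb for all genes, and 29 of 66 reached 100 kb (43.9%, against 11.1% of all genes). Among genes of at least 100 kb, 23 of 29 members held a peak in wild type 1 (79.3%; all such genes 33.5%). Among shorter genes it was 12 of 37 (32.4%; all such genes 10.9%). In wild type 2 it was 29 of 29 (100%; all such genes 83.7%) and 34 of 37 (91.9%; 51.7%). For BAP1 knockout the long members gave 27 and 29 of 29 (all long genes 53.8% and 89.2%) and the shorter ones 24 and 35 of 37 (all shorter genes 23.5% and 60.3%). A window of 1 kb on each side of a listed gene start does not grow with gene length. A gene with several listed starts has several such windows, however, and this was not evened out. Of 57 members with a listed start, 25 held a peak there in wild type 1 (43.9%, all 17492 such genes 10.6%). In wild type 2 it was 49 (86.0%, all such genes 49.0%). In BAP1 knockout the counts at the start were 41 (71.9%; 22.3%) and 50 (87.7%; 57.5%). The gap between members and all genes was thus present within both length classes and at gene starts. With each list shortened to its 4038 best peaks by −log10 q, the length of the shortest, the 4 RNF2 libraries held 35, 43, 40 and 44 members, against 13.4%, 16.2%, 15.8% and 16.9% of all genes. No test of a list was made, and these shares describe single libraries.

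The members fell into 4 classes of occupancy. A peak in both wild-type libraries marked 35 genes (53.0%; 13.4% of all genes), and all 35 also held a peak in both BAP1 knockout libraries (all genes 13.0%). These were Sema3d, Sema3f, Sema5a, Sema5b, Sema6a, Sema6b, Sema6d, Sema7a, Plxna1, Plxna2, Plxna4, Plxnc1, Plxnd1, Efna3, Efna5, Efnb1, Efnb2, Epha3 to Epha7, Ephb1, Slit2, Slit3, Robo1, Robo2, Robo3, Ntn1, Ntn3, Ntn4, Ntn5, Unc5b, Unc5c and Unc5d. A peak in wild type 2 but not wild type 1 marked 28: Sema3a, Sema3b, Sema3c, Sema3e, Sema3g, Sema4b, Sema4c, Sema4d, Sema4f, Sema4g, Sema6c, Plxnb1, Plxnb2, Efna1, Efna2, Efna4, Efnb3, Epha1, Epha2, Epha8, Epha10, Ephb2, Ephb3, Ephb4, Ephb6, Slit1, Robo4 and Unc5a. Sema4a held a peak in knockout 2 alone. Plxna3 and Plxnb3, plexin genes of the X chromosome, held none in any library, while Efnb1, also on the X, was occupied in all 4.

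Within the list of wild type 2, the larger classes differed in strength, with ranges that overlapped. Fold enrichment, the authors' ratio of the peak to its local background, had a median of 16.8 (9.02 to 22.3) at the 35 genes and of 5.17 (2.55 to 15.8) at the 28. The bases covered by peaks had a median of 4555 bp (1705 to 7399) against 1547 bp (153 to 6918). Median gene length also differed, 154 kb against 25.2 kb, and its part in this was not tested. Fold enrichments below are the highest in each gene window, given for the first and second library of a genotype in that order, and can be read within a library but not across libraries. The plot of covered length by member shows the same split gene by gene.

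**Figure D2:**
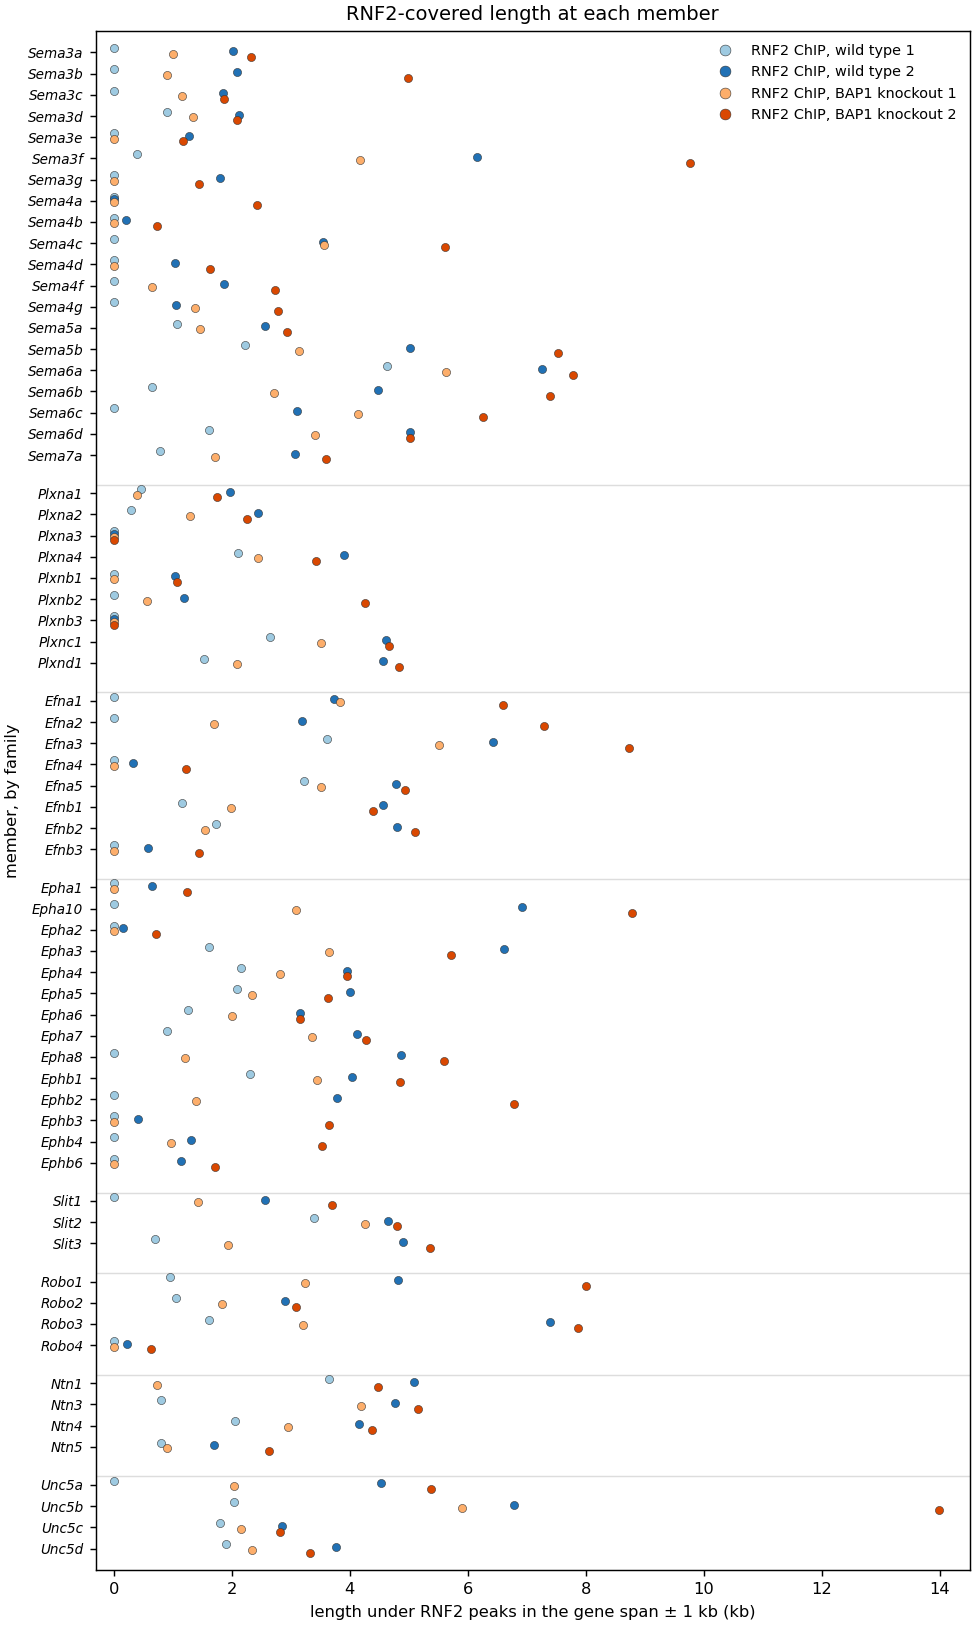
Length covered by RNF2 peaks in each member's window (kb, x axis) for the guidance genes ordered by family (y axis), with 1 point per RNF2 library. Sema6a, Ntn1, Efna3, Slit2 and Efna5 cover at least 3.23 kb in each wild-type library, while plexin B and class 4 semaphorin genes show no covered length in wild type 1.

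Among the ligands, semaphorins spanned a wide range of peak strengths. Semaphorins are secreted or membrane-bound cues that mostly repel axons. Sema6a, a transmembrane semaphorin that binds plexin A receptors, led all members by the lower wild-type value: its fold enrichment was 13.9 and 12.8 in wild type and 25.4 and 18.5 in BAP1 knockout. Covered length came to 4.62 kb (wild type 1), 7.26 kb (wild type 2), 5.64 kb (knockout 1) and 7.79 kb (knockout 2). In wild type 2 its fold enrichment lay below the median of occupied members (13.1), while in wild type 1 and knockout 1 no member was higher. The gene had more covered length in each knockout library than in the wild-type library of the same number. The members most like it over the 5 libraries with peaks, by distance between their log2 fold enrichments, were Plxnd1 (0.86), Efna5 (1.07) and Epha5 (2.12). Epha5 had no BAP1 C91A peak, and its missing value entered as a log2 of 0, so its distance partly reflects that absence.

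Class by class, the transmembrane class 5 and class 6 semaphorins and the GPI-anchored Sema7a were occupied most often in wild type 1. Peaks lay there at 2 of 2 class 5 genes, 3 of 4 class 6 genes and Sema7a, against 2 of 7 secreted class 3 genes and 0 of 6 class 4 genes. The share over all genes there was 13.4%, and with so few genes per class no difference from it was tested. Median gene length was 287 kb (class 5), 71.6 kb (class 6), 23.3 kb (Sema7a), 155 kb (class 3) and 26.6 kb (class 4). The part of length in these counts was not tested. In wild type 2 all class 3, 5, 6 and 7 genes and 5 of 6 class 4 genes held a peak (all genes 55.3%). Sema5b, which carries thrombospondin repeats, had fold enrichments of 6.07 and 19.8 in wild type and 7.34 and 18.3 in knockout. Sema3d and Sema3f were the occupied class 3 genes, at 4.18 and 3.26 in wild type 1 and 14.6 and 12.3 in wild type 2. Sema4b lay at the weak end, with a peak of 3.21 in wild type 2 and 2.91 in knockout 2 and none in the first libraries. Sema4a, the one semaphorin with no wild-type peak, reached 4.44 in knockout 2, over 2.43 kb. Class 4 was thus the semaphorin class with the fewest and weakest peaks in wild type, with a median fold enrichment of 4.52 in the second library against 11.7 for all semaphorins there.

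Ephrins are membrane-tethered ligands, GPI-anchored in class A and transmembrane in class B. Peaks lay at 4 of 8 in wild type 1 (all genes 13.4%) and 8 of 8 in wild type 2 (all genes 55.3%). In BAP1 knockout they lay at 6 and 8 of 8 (all genes 26.9% and 63.5%). Efna5, known for its graded expression in the visual map, led them in wild type with 9.85 and 21.4 and had 18.5 and 15.9 in knockout, where Efnb1 (21.0), Efna1 (19.8) and Efna2 (19.5) were higher in the second library. That Efna1 peak lay 9.03 kb from its start, near the start of Slc50a1, and that of Efna2 at the far end of the gene. Efna3 had lower fold enrichment, 5.55 and 18.8 in wild type and 10.6 and 14.8 in knockout, but more covered length, 3.62 and 6.43 kb against 5.51 and 8.73 kb in knockout. The ephrin genes Efna1, Efna3 and Efna4 lie side by side on chromosome 3, with 32.9 kb between Efna1 and Efna3 and 10.5 kb between Efna3 and Efna4, and no peak was shared between them. Their values were unlike: Efna4 had the weakest ephrin peak of wild type 2 (2.99, over 0.327 kb) and none in wild type 1, and Efna1 had 5.39 there and none in wild type 1. Efnb1 and Efnb2, the class B ligands of vascular and neural tissue, were occupied in all 4 libraries, at 18.3 and 17.6 in wild type 2, while Efnb3 reached 3.46 there.

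All 4 netrins and 2 of 3 Slits were occupied in wild type 1 (all genes 13.4%), and every netrin and Slit in wild type 2 (all genes 55.3%). Netrins attract or repel axons depending on the receptor, and each of the 4 genes held a peak in all 4 RNF2 libraries. Ntn1, the founding member, had fold enrichments of 10.7 and 16.7 in wild type but 2.78 and 16.1 in BAP1 knockout. Ntn4, a basement membrane netrin, had 6.63 and 20.1 in wild type and 12.2 and 20.1 in knockout, and its upstream stretch is among those printed above. Ntn5 had 7.49 and 11.4 in wild type and 4.70 and 15.0 in knockout, but its strongest peak lay at the far end of the gene, at the start of Sec1. Ntn3 had the lowest netrin value of wild type 1, 3.25, and in all 4 libraries its strongest summit lay 2.50 to 2.78 kb inside the gene, near the start of Tbc1d24. Slit2, a secreted repellent of the midline, covered 3.40 and 4.65 kb in the wild-type libraries, then 4.25 and 4.80 kb without BAP1, with fold enrichments of 5.59, 15.7, 9.46 and 17.3 in the same order. Slit3 reached 4.03 and 21.3 in wild type. Slit1 lacked a peak in wild type 1 and had 12.1 in wild type 2.

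Receptors and ligands were occupied at similar shares. Peaks lay at 17 of 31 receptors and 18 of 35 ligands in wild type 1 (all genes 13.4%), and at 29 and 34 in wild type 2 (all genes 55.3%). In BAP1 knockout, 23 and 29 receptors and 28 and 35 ligands held one (all genes 26.9% and 63.5%). The split ran inside the receptor families rather than between receptors and ligands.

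Plexins are the semaphorin receptors, and their subfamilies differed. Median gene length differed too, 122 kb for plexin A, 26.1 kb for plexin B and 97.3 kb for plexin C and D, and its part was not tested. Plxnc1 and Plxnd1, receptors of Sema7a and Sema3e, were occupied in all 4 libraries. Plxnd1 had fold enrichments of 10.2 and 15.5 in wild type and 16.2 and 18.6 in knockout, and Plxnc1 had 6.58 and 18.5 in wild type and 16.2 and 20.9 in knockout. The plexin A genes Plxna1, Plxna2 and Plxna4 were occupied in all 4 too, with Plxna4 at 5.88 and 22.3 in wild type and Plxna1 at 4.52 and 9.02. Of the plexin B genes, Plxnb1 and Plxnb2 had weak peaks in wild type 2 (3.59 and 3.84) and none in wild type 1, and in BAP1 knockout Plxnb2 had 4.31 and 12.0. Plxna3 and Plxnb3 were the members with no listed peak.

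Eph receptors showed the same inner split. EphA genes were occupied at 5 of 9 in wild type 1 and EphB genes at 1 of 5 (all genes 13.4%). All 14 held a peak in wild type 2 (all genes 55.3%). Median gene length was 148 kb for EphA and 24.4 kb for EphB, and its part in this split was not tested. Epha5 led the EphA genes in wild type, at 7.77 and 22.3, and had 16.5 and 21.3 in knockout. Ephb1 was the single EphB gene of the list of wild type 1, at 6.12, and had 21.3 in wild type 2 and 22.7 and 23.6 in knockout. Both are receptors of the nervous system with gene bodies of 363 and 433 kb. Epha2, an epithelial EphA receptor, had the weakest Eph peak of wild type 2 (3.06, over 0.153 kb) and none in wild type 1. Epha10, which lacks kinase activity, was the strongest of the members absent from the list of wild type 1, at 15.8 over 6.92 kb in wild type 2, with a summit 13.1 kb inside the gene near the start of 1700125G02Rik.

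Robo and Unc5 receptors were occupied except for single members. Robo1, Robo2 and Robo3 held peaks in all 4 libraries, at 4.03, 3.88 and 5.18 in wild type 1 and 13.9, 14.8 and 18.5 in wild type 2. Robo4, the endothelial Robo, had 2.55 in wild type 2, the lowest value of any occupied member there, over 0.225 kb. Robo3 and Robo4 lie 2.02 kb apart on chromosome 9 and shared no peak, with 7.40 kb covered at Robo3 in the same library. Unc5b, Unc5c and Unc5d, which mediate repulsion by netrin, were occupied in all 4 libraries. Unc5c had 5.87 and 20.5 in wild type and 7.11 and 18.3 in knockout, and Unc5b had the lowest value of the occupied Unc5 genes in wild type 1, 3.78. Unc5a was not listed in wild type 1 and had 11.0 in wild type 2 and 4.74 and 20.2 in knockout. Neighbouring genes of one family thus differed even across a few kilobases.

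The strongest RNF2 peak of each member lay mostly at the gene start, while most peaks of the deeper lists lay elsewhere. Of members with a listed start and a peak, the summit of the strongest peak lay within 1 kb of the start at 20 of 29 (69.0%) in wild type 1 and 39 of 54 (72.2%) in wild type 2, and at 29 of 43 (67.4%) and 38 of 55 (69.1%) in BAP1 knockout. Median distances were 676 and 458.5 bp in wild type and 470 and 572 bp in knockout. The same shares over all genes with a peak were not computed, so this position is not shown to be particular to guidance genes. Summits counted as downstream of the nearest listed start outnumbered those upstream, 23 against 6 and 44 against 10 in wild type. In knockout it was 36 against 7 and 49 against 6. The window held the whole gene but only 1 kb beyond its ends, so the 2 sides did not have equal room. These counts therefore do not show a preference for the downstream side. Counting every peak rather than the strongest, the share within 1 kb was 64.1% and 37.3% in wild type and 58.2% and 31.6% in knockout, so the deeper lists added peaks away from starts. Genes have further starts that the table does not list, and a summit away from the listed one may lie at another. The plot of summit positions shows the cluster at the start and the members away from it.

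**Figure D3:**
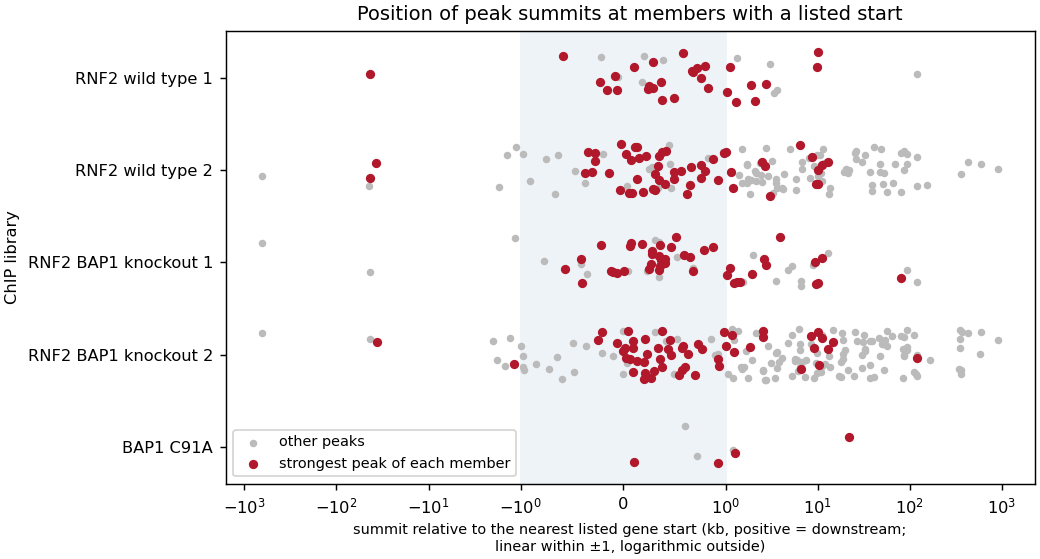
Distance of peak summits from the nearest listed gene start (kb, x axis, positive downstream; linear within 1 kb of the start and logarithmic outside) in the 4 RNF2 libraries and the BAP1 C91A library (y axis), red for the strongest peak of each member and grey for its other peaks; vertical spread within a row only separates points. Most red points of the RNF2 rows lie within 1 kb, 20 of 29 in wild type 1 and 39 of 54 in wild type 2.

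Other members carried their strongest peak elsewhere. Its summit lay over 1 kb from a listed start at 9 of 29 and 15 of 54 members in wild type. In BAP1 knockout it was 14 of 43 and 17 of 55, and some of these genes follow. At Sema6d the strongest peak lay 43.0 kb upstream of the nearest listed start in both wild-type libraries. At Efna2, Ntn5, Sema6b and Sema6c the strongest peak of wild type 2 covered the far end of the gene, 4 of the 15 members whose strongest summit was away from the start. Efna2, a gene of 10.5 kb, had its strongest summit there 11.2 kb from its start. In BAP1 knockout the strongest Sema5b peak lay 119 kb inside the gene in the second library and the strongest Ephb2 peak 80.4 kb inside in the first.

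Promoters of members were CG-rich beside those of all genes. Promoter entries from RefSeq (GRCm38.p6) were matched for 57 of 66 members; Efnb3, Ntn1, Plxna1, Plxna4, Sema3b, Sema3f, Sema6a, Slit1 and Unc5d had no entry. Here the window was the whole entry, 250 bases before and 50 after the start. It held a median of 22 CG (2 to 56) at members and 13 (0 to 65) over all 17492 promoters. The motif CG, which reads the same on both strands, was found in 100% of member windows and 94.8% of all. At least 10 CG stood in 82.5% of member windows and 57.2% of all, and the median G+C share was 64.7% against 56.3%. The ratio of observed to expected CG was 0.681 against 0.577.

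Among members, CG counts differed little between the occupied classes. The median was 23 (3 to 41) at the 29 members with a promoter entry and a peak in both wild-type libraries, and 21 at the 25 with a peak in the second alone, and all genes of the same classes had 21 and 21. The 3 members with no wild-type peak had a median of 4 (4 to 18), and all genes without one also had 4. For the relation of CG count to strength, 1 listed start per gene was used. Members with a peak only at another listed start, such as Robo2, are therefore left out. Across the rest, CG count and log2 fold enrichment at the start had a Pearson r of 0.35 (Spearman 0.35, n = 24 genes) in wild type 1. In wild type 2 it was 0.24 (0.25, n = 48). In knockout r was 0.14 (0.12, n = 39) and 0.12 (0.16, n = 48). These points are genes of 1 library that share its depth, not replicates, and the relation is weak. Of the printed stretches, that of Epha2 thus has few CG for its class, and CG count did little to rank the occupied members.

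**Figure D4:**
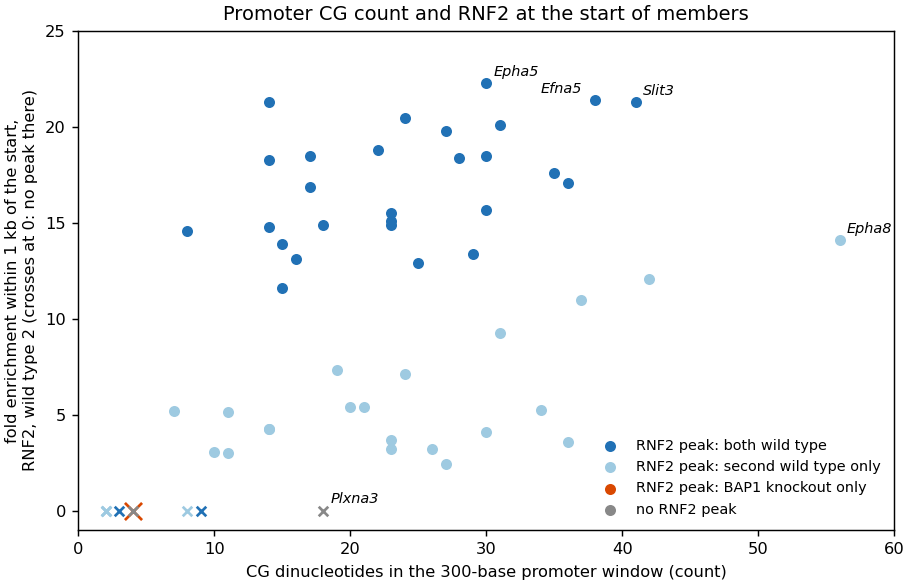
Number of CG dinucleotides in the promoter window (250 bases before and 50 after the start, x axis) against the fold enrichment within 1 kb of the start in wild type 2 (y axis; crosses at 0 mark no peak there), 1 point per member with a promoter entry, coloured by class. Only 1 listed start per gene is used here, so Robo2, whose peak lies at another listed start, is a cross. The 3 members without a wild-type peak have 4 to 18 CG, and members with a peak in both wild-type libraries spread from 3 to 41 with no tight relation to height.

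The series asks how RNF2 binding differs without BAP1, and for guidance genes the answer depended on which pair of libraries was read. Across all 4 libraries, 0 of 66 members were gained (peaks in both BAP1 knockout and no wild-type library; 0.133% of all genes) and 0 lost (the mirror case; 0%). Within the first pair 16 were gained (24.2%; all genes 13.9%) and 0 lost (all genes 0.377%). They were Sema3a, Sema3b, Sema3c, Sema4c, Sema4f, Sema4g, Sema6c, Plxnb2, Efna1, Efna2, Epha8, Epha10, Ephb2, Ephb4, Slit1 and Unc5a. Within the second, deeper pair 1 was gained, Sema4a (all genes 9.64%), and 0 were lost (all genes 1.40%). These counts moved with the threshold. With only peaks of −log10 q of at least 10 kept, the first pair had 27 gained (40.9%; all genes 12.0%) and 2 lost, Ntn1 and Plxna1 (3.03%; all genes 0.147%). The second pair then had 6 gained, Efna4, Efnb3, Ephb3, Plxnb1, Plxnb2 and Sema4a (9.09%; all genes 14.6%), and 0 lost (all genes 0.826%). With all peaks, the 16 gains of the first pair each held a peak in wild type 2, as did 98.9% of all genes gained in that pair. Among genes with no peak in wild type 1, 16 of 31 members were gained, and 16.0% of all such genes. A gain in the first pair, with all peaks, thus added, at these members, no gene that the deeper wild-type list lacked.

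Among the members, the gained genes of the first pair were of middle strength in wild type 2. They were not in the middle of that list as a whole, where the median fold enrichment over all peaks was 3.21. Their fold enrichment there ran from 3.84 to 15.8 with a median of 8.05, over a median of 2831.5 bp. The 15 members missing from both first libraries had 2.55 to 5.23 there with a median of 3.63 where a peak was listed, over a median of 404 bp for all 15. By fold enrichment in knockout 1, the leading gains were Sema6c at 12.7, Efna1 at 11.0, Efna2 at 9.39, Epha10 at 7.25, Epha8 at 7.18 and Slit1 at 6.94. These same 6 genes had 8.78, 5.39, 13.2, 15.8, 14.1 and 12.1 in wild type 2 and 19.8, 19.8, 19.5, 22.4, 12.0 and 15.9 in knockout 2. These values are not always of the same peak. That of Efna1 in knockout 2 lay 9.03 kb from its start, near the start of Slc50a1, and its peak at its own start had 15.7. The Sema6c and Efna2 values are of far-end peaks. Within 1 kb of the start, Sema6c had 3.23, 4.28 and 15.1 in wild type 2, knockout 1 and knockout 2. Efna2 had 9.24, 3.97 and 19.2. The highest Epha10 peaks also lay away from its start.

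Limiting every list to its 4038 best peaks gave 3 members gained across all 4 libraries, Efna1, Sema4c and Sema4g (all genes 1.65%), and 1 lost, Plxna1 (all genes 0.611%). Within pairs of these shortened lists, 9 members were gained (all genes 4.67%) and 4 lost (Epha7, Ntn1, Plxna1 and Robo1; all genes 2.30%) in the first, and 4 gained (Efna1, Ephb2, Sema4c and Sema4g; all genes 3.05%) and 3 lost (Plxna1, Plxna2 and Sema3a; all genes 2.27%) in the second. A place in a shortened list is a rank, so these are moves relative to other peaks of the library and not changes in level.

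Peaks at members covered more of the genome in BAP1 knockout within each pair. The total over the 66 windows was 60.2 kb against 126 kb in the first pair (wild type against knockout) and 210 kb against 275 kb in the second, ratios of 2.10 and 1.31. The mean log2 difference was 0.73 over the 2 against 2 libraries, with a two-sided exact permutation p of 0.667, where 0.33 is the smallest this design allows. The values overlap, since wild type 2 exceeded knockout 1, and without wild type 1 the log2 difference was -0.17. As a share of all bases covered in the library, members took 0.869% and 0.855% (wild type 1 and 2) and 0.927% and 0.766% (knockout 1 and 2). The members' share therefore moved up in the first pair and down in the second, while more was called in each knockout library as a whole (13.6 and 35.9 Mb against 6.93 and 24.5 Mb). The number of peaks in member windows was 46 and 173 in wild type and 76 and 226 in knockout.

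At the 35 members with a peak in all 4 libraries, wider coverage in knockout was about as frequent as over all genes. Median covered length in the first pair was 1616 bp against 2718 bp with BAP1 lost, a median ratio of 1.49, with 32 of 35 wider (91.4%; all 2840 such genes 91.8%, median ratio 1.65). In the second pair it was 4555 against 4663 bp, a median ratio of 1.05, with 23 wider, 11 narrower and 1 equal (65.7%; the same 2840 genes 69.6%, median ratio 1.08). Counting every member with a peak in both libraries of the second pair, 49 of 63 were wider (77.8%; all genes 84.9%). Wider in both pairs were 22 of 35 (62.9%; all genes 66.5%). These shares lie near the background, and the plot of wild-type against knockout length shows the members along it.

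**Figure D5:**
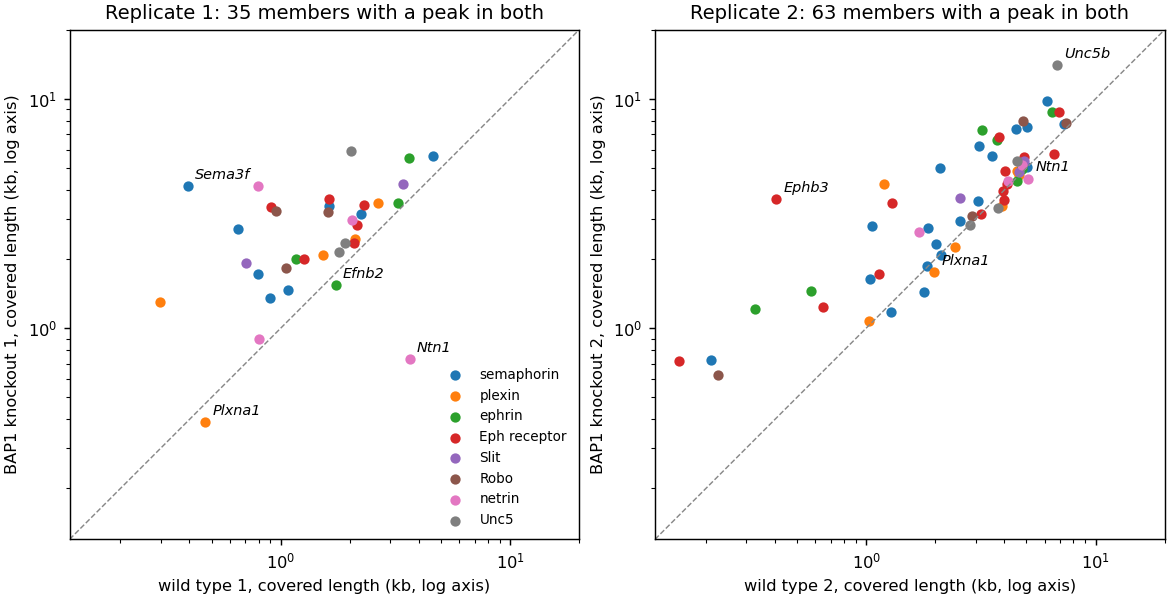
Covered length per member in wild type (kb, x axis) against BAP1 knockout (kb, y axis), both axes on a log scale, for members with a peak in both libraries of the first pair (left, 35) and of the second (right, 63), coloured by family; the dashed line marks equal length. Most members of the first pair lie above the line of equality (32 of 35), and 49 of 63 do so in the second.

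Single members departed from that pattern. Ntn1 was narrower in knockout in both pairs, 3.65 against 0.735 kb in the first (ratio 0.201) and 5.09 against 4.48 kb in the second (0.880). Plxna1 was also narrower in both, 469 against 389 bp and 1975 against 1753 bp, and Efnb2 in the first, 1733 against 1542 bp. Sema3f, a secreted class 3 semaphorin, went the other way, 0.394 against 4.16 kb (ratio 10.6) and 6.15 against 9.77 kb (1.59). Unc5b covered 2.03 against 5.90 kb (2.91) and 6.77 against 14.0 kb (2.06), with 16 separate peaks in knockout 2 and 5 in wild type 2. Ephb3, a receptor absent from both first libraries, covered 0.404 kb in wild type 2 and 3.65 kb in knockout 2 (9.03). These 6 genes were chosen after their values were seen, each comparison is 1 library against 1, and none carries a test.

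BAP1 itself was listed at few guidance genes. In the C91A library, with 415 M tags, 5 members held 8 BAP1 peaks (7.58% of members; 4.52% of all genes). They were Plxnd1, Efnb2, Unc5a, Efna5 and Sema6a. Their highest fold enrichments were 3.83 at Efna5, 3.69 at Plxnd1, 3.47 at Unc5a, 3.14 at Sema6a and 3.11 at Efnb2, and the best of them ranked 550 of 2395 peaks in that list. By length it was 2 of 29 long members (6.90%; all long genes 6.51%) and 3 of 37 shorter ones (8.11%; all shorter genes 4.27%). Within 1 kb of a listed start the count was 2 of 57 (3.51%; all such genes 3.78%), and among members with RNF2 in both wild-type libraries it was 4 of 35 (11.4%; all such genes 16.6%). Members' counts thus lay near the background of this list, and with 1 library there is no test. No member's BAP1 peak reached a −log10 q of 5.

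Where BAP1 was listed, its peaks fell on RNF2 peaks at all but 1 gene. Those of Efna5 (chr17:62880655-62881018 and chr17:62881126-62881282) lay just inside the gene from the printed stretch, the nearer summit 108 bp from the start. Plxnd1 held 3 short peaks, the strongest at chr6:115994073-115994124, with its summit 923 bp from the start. The peak of Efnb2 (chr8:8659901-8659981) lay 1280 bp from the start, and that of Sema6a lay in a gene with no listed start. These 7 peaks each overlapped an RNF2 peak in all 4 wild-type and BAP1 knockout libraries. The peak of Unc5a (chr13:54970980-54971085) lay 21637 bp inside the gene and overlapped no RNF2 peak. Over all genes, 485 of the 984 with a C91A peak held an RNF2 peak in both wild-type libraries. The share of all C91A peaks that overlap an RNF2 peak was not computed, so the overlap is not shown to be particular to guidance genes. Sema6a, Plxnd1 and Efna5 were also among the 4 members of highest RNF2 enrichment by the lower wild-type value, though in wild type 2 alone Sema6a lay below the member median.

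Efna5 also led the control list of BAP1 ChIP. BAP1 ChIP in BAP1 knockout cells listed 144 peaks, and 1 member held one of them (1.52%; all genes 0.124%). That member was Efna5, and its peak (chr17:62737482-62737708, 227 bp) ranked first in the list, at a fold enrichment of 8.92 and a −log10 q of 21.0. It lay 143721 bp from the start and overlapped neither an RNF2 peak nor the C91A peaks of the gene. The Efna5 peaks at the start were therefore absent from the control list, which came from 32.5 M tags against 415 M.

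Other genes of the guidance pathways, co-receptors, adhesion partners and intracellular effectors, gave similar shares. Of 43 such genes, RNF2 peaks lay at 20 in wild type 1 (all genes 13.4%) and 41 in wild type 2 (all genes 55.3%). Knockout 1 had 29 (all genes 26.9%), knockout 2 had 43 (all genes 63.5%), and the RNF2 knockout library had 0 (all genes 0%). These counts are not split here by gene length. Nrp2, a semaphorin co-receptor, had fold enrichments of 14.2 and 20.9 in wild type and 19.2 and 22.9 in knockout, and its paralogue Nrp1 had 4.58 and 12.8, then 13.2 and 21.8. The Wnt ligand Wnt5a had 15.0 and 21.0 in wild type and 27.4 and 20.5 in knockout. Cxcr4, the chemokine receptor of Cxcl12, had 11.8 and 22.4, then 15.1 and 20.1. The netrin receptor Dcc was not listed in wild type 1 and had 7.79 in wild type 2 and 3.09 and 11.0 in knockout, and Neo1, its relative, had 5.49 and 3.87 in wild type 2 and knockout 2 alone. The windows of all netrin genes thus held RNF2 in both wild-type libraries. Of their receptors, Unc5b to Unc5d did so in both and Dcc, Neo1 and Unc5a in the second alone. Within 1 kb of a listed start, however, only Ntn4 among the netrins held a peak in both. Ntn3 did so in wild type 2 alone and Ntn5 in neither, and Ntn1 had no listed start. In the first pair 9 of the 43 were gained (all genes 13.9%) and 0 lost (0.377%), in the second 2, Chn1 and Srgap3 (9.64%), and 0 (1.40%). BAP1 in C91A cells was listed at 2 of them, Shh and Wnt5a (all genes 4.52%), and the BAP1 ChIP control at 1, the adhesion gene Chl1 (all genes 0.124%).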

How the data were processed

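The authors called peaks with MACS2, 1 ChIP library and its own input at a time, keeping q-values up to 0.05 and 1 tag per position, per the file headers. The submitters' processing notes name GSNAP and the build GRCm38 (mm10). Version 2.1.0.20150420 made the lists of wild type 1, knockout 1 and both BAP1 libraries, and 2.1.1.20160309 the others, also per the headers. Fragment lengths, per the file headers, were 297 bp (wild type 1), 323 bp (knockout 1), 100 bp (wild type 2, knockout 2, RNF2 knockout) and 50 and 147 bp in the C91A and BAP1 knockout libraries of BAP1 ChIP. Tags after the authors' filtering came to 58.4 and 149 M (wild type), 54.1 and 139 M (BAP1 knockout), 119 M (RNF2 knockout), 415 M (C91A) and 32.5 M (BAP1 ChIP control). Inputs held 41.0 to 228 M. The labels number the second RNF2 library of each genotype; the unnumbered one was taken as the first. FLAG ChIP was not analysed here.

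Deposited values per peak are the pileup signal at the summit, −log10 of the p-value and q-value, and the fold enrichment, a ratio to local background; all are the authors'. Pileup signal was not used. Fold enrichment describes peaks within a list, and −log10 q served as an alternative threshold.

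Peaks of chromosomes 1 to 19 and the sex chromosomes were overlapped with gene windows (Python 3.11.15, pandas 2.3.3, numpy 2.4.6, scipy 1.17.1, matplotlib 3.10.9). Of the RefSeq genes, 108 that begin below 3 Mb (Y excepted) were dropped, as they may lie on unplaced scaffolds. Gene starts and strands came from the RefSeq promoter table, present for 57 members. The overlap step was checked on simulated peaks. Members and lists were chosen with earlier results of these data known. Values were given for the 10 members of highest fold enrichment (lower wild-type library), the 5 of greatest covered length, gained and lost members, BAP1 peaks, family extremes and members without a peak. The replicate numbers coincide with depth and calling version. Deviations of same-numbered libraries from their genotype means correlated at 0.27 over 35 members.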

Additional observations from a re-analysis of the deposited data

How the results depend on the processing

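There were 125 alternative values (gene span alone, 5 kb flanks, the 1 kb around gene starts, −log10 q of at least 5 or 10, summits only, unshared peaks, shortened lists, left-out libraries, the replicate block). Of these, 107 kept their direction (covered length) or were classed as unchanged (counts), 17 counts moved and 1 value reversed. The unchanged class allowed wide shifts. In shortened lists, members with a peak went from 63 to 43 in wild type 2 (all genes 55.3% to 16.2%). They went from 51 to 40 in knockout 1 (26.9% to 15.8%) and from 64 to 44 in knockout 2 (63.5% to 16.9%). Around gene starts, 2 members held a C91A peak, 0 a peak in the BAP1 ChIP control, and 1 of the other guidance genes a C91A peak. At −log10 q of at least 5 or of at least 10, 0 members and 0 other guidance genes held a C91A peak. At 10, 22 members held a peak in wild type 1 (8.09% of all genes) and 1, Plxnb2, was gained across 4 libraries. In shortened lists, 3 members were gained and 1 lost. There, 23 and 22 other guidance genes held a peak in wild type 2 and knockout 2 (all genes 16.2% and 16.9%). With the replicate block, the calls within number 1 gave 16 gains and those within number 2 gave 1, and the mean log2 covered-length ratio was 0.73 as before. Leaving out 1 library at a time, gains across the rest ran from 0 to 16 (16 without wild-type replicate 2, all genes 13.9%; 1 without BAP1 knockout replicate 1, all genes 9.64%), and the log2 ratio of covered length from -0.17 (without wild-type replicate 1) through 0.17 (without BAP1 knockout replicate 2) and 1.29 (without BAP1 knockout replicate 1) to 1.63 (without wild-type replicate 2). The first and second libraries differ in depth, MACS2 version, fragment length and redundant share together, and the cause of these differences was not tested.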
